A study of Mus musculus with 4 samples.

Results

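The genes described here are 10 long noncoding RNAs of the mouse testis, chosen by symbol: the nuclear-body RNAs Malat1 and Neat1, the imprinted RNAs Meg3, Rian, Mirg, Kcnq1ot1 and H19, and the small nucleolar RNA (snoRNA) host genes Gas5, Snhg1 and Snhg11. All 10 were found among the 25265 genes of the deposited table, and all 10 passed the filter on low counts that left 21132 genes for testing. Testes of C57BL/6 mice at postnatal day 56 gave 2 libraries labelled control and 2 labelled Ythdf2-vKO, a germ cell-specific mutation of Ythdf2 by the series title. The age and strain are shared by both groups. The Cre driver, the deleted segment, the exact genotype of the controls and whether the libraries stem from different animals are not given in the sources used here, so p-values measure only the spread between these libraries, which may be technical.

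Ribosomal RNA was depleted from total RNA before directional libraries were made, so RNAs without a poly(A) tail could enter them. Total gene counts ran from 24862518 to 29561182 per library. The targeted gene Ythdf2 had 51.0 and 53.5 counts per 1000000 library counts (CPM, scaled by TMM) in the control libraries and 66.3 and 67.0 CPM in vKO-labelled libraries, a log2 fold change of 0.35 (SE 0.13, edgeR adjusted p = 0.238). It was thus not lower under the vKO label, and every direction below is that of vKO-labelled against control-labelled libraries. Every tested marker of spermatogonia, spermatocytes, spermatids, Sertoli cells and Leydig cells had counts in each library.

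Long noncoding RNAs are transcripts over which no large protein is read. Malat1 gathers in nuclear speckles, which store splicing factors, and Neat1 is the scaffold of paraspeckles. Meg3, Rian and Mirg are read from the maternal copy of the Dlk1-Dio3 region and carry microRNAs and snoRNAs in their introns or exons. H19 is read from the maternal copy and hosts a microRNA, while Kcnq1ot1 is read from the paternal copy and silences neighbouring genes on that chromosome. Gas5 and Snhg1 are spliced to release snoRNAs from their introns, and the exons that remain are short-lived. YTHDF2 binds RNA that carries N6-methyladenosine in the cytoplasm and brings in the CCR4-NOT complex, which removes its tail.

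The 3′ ends of Malat1 and of the long form of Neat1 are shown first, because both transcripts are known to end in a triple helix, made of U-rich stretches and an A-rich one, in place of a poly(A) tail. They are copied from the GENCODE M21 transcripts, on the minus strand of GRCm38, at chr19:5795962-5796085 for Malat1 and chr19:5824708-5824817 for Neat1. Capitals mark the 3 runs of at least 10 letters that the last 400 bases of both transcripts have in common, which are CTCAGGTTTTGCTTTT, TTTCTTTTCCTGA and AAAAAGCAAAA.
Malat1: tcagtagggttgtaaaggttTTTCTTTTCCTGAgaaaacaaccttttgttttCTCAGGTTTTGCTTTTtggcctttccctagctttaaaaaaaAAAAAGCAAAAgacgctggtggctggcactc
Neat1: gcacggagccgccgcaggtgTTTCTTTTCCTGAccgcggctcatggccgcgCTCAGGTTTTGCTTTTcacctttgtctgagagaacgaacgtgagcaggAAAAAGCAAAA
The Malat1 stretch begins 396 bases before the annotated end of the 6983 nt transcript, and the Neat1 stretch begins 110 bases before the end of 20771 nt. The runs follow each other in the same order in both, a pair rich in T (U in the RNA) and then the run rich in A. Since the runs were taken from these transcripts, their presence in both is no finding. The last 400 bases of the longest M21 transcript of 21116 tested genes were searched for them, on the sense strand only. Malat1 and Neat1 are among these genes and are included in each count that follows. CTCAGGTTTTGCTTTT was found in 2 genes (0.00947%), TTTCTTTTCCTGA in 3 (0.0142%) and AAAAAGCAAAA in 33 (0.156%), and only 2 genes, Malat1 and Neat1, held all of them.

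The imprinted hosts are shown through their microRNAs, from the RefSeq table of GRCm38.p6, with the seed (bases 2 to 8) in capitals. Meg3 spans 3 mature microRNAs on its strand, Rian 6, Mirg 26 and H19 2. The lines below give both arms from H19, an example from each of the other hosts, and the only 2 of these microRNAs that share a seed, both from Mirg.
mmu-miR-675-5p (H19): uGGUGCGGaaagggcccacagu
mmu-miR-675-3p (H19): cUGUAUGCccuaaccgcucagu
mmu-miR-770-5p (Meg3): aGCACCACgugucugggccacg
mmu-miR-370-3p (Rian): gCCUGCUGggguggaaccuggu
mmu-miR-410-3p (Mirg): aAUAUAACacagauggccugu
mmu-miR-453 (Mirg): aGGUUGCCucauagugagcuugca
mmu-miR-496a-5p (Mirg): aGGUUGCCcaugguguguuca
The microRNAs themselves were not analysed here: the counts are those of the host genes.

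None of the 10 RNAs differed between the groups past the threshold in the fit on the group label with all 4 libraries. In edgeR's quasi-likelihood test, adjusted by Benjamini-Hochberg over all genes, 0 of the 10 were called at an adjusted p under 0.05, against 0.393% of the 21132 genes tested. Called higher were 0 of the 10, against 0.279% of all genes, and called lower were 0 of the 10, against 0.114%, and the smallest adjusted p among them was 0.455, that of Neat1. At an unadjusted p under 0.05 there were 0 of the 10, against 14.1% of all genes. The authors' deposited table also gave 0 of the 10 at an adjusted p under 0.05 and 0 at an unadjusted p under 0.05, with the smallest adjusted p at 0.607. Mean CPM was higher in vKO-labelled libraries for 7 RNAs and lower for 3, with a median log2 fold change of 0.13 against 0.00265 for all genes, of which 50.3% were higher. The libraries of both groups did not overlap for 1 of the 10 RNAs, Neat1, against 45.3% of all genes tested, of which 22.7% were higher without overlap and 22.6% lower without overlap. A missed threshold does not show that the groups were alike, and the 95% intervals bound the difference: they spanned 0 for all 10 RNAs and stayed within a 2-fold change in either direction for 7, the exceptions being Meg3, Rian and H19.

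**Figure D1:**
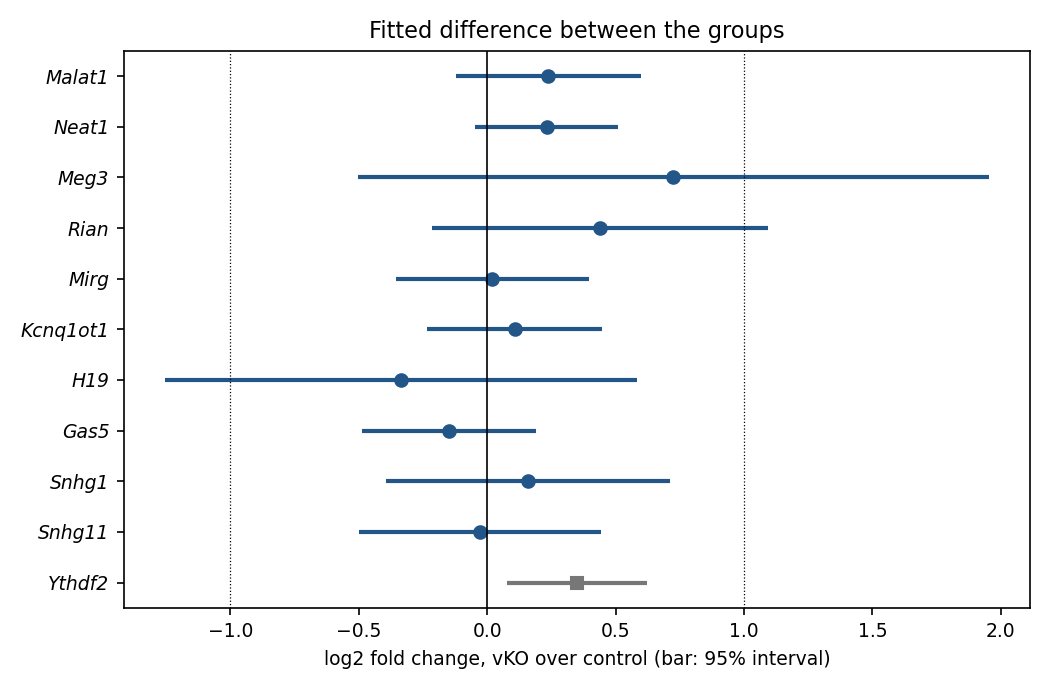
Log2 fold change of vKO-labelled libraries over control for each of the 10 RNAs and, as a grey square, for Ythdf2; bars are 95% intervals from edgeR and dotted lines mark a 2-fold change. All 10 intervals of the RNAs cross 0, and those of Meg3, Rian and H19 pass a dotted line.

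Malat1 was the most abundant of the RNAs and held 62.4% of all their counts. It had 235 and 254 CPM in the control libraries and 234 and 342 CPM in vKO-labelled libraries. The single high library was vKO replicate 2, while vKO replicate 1 was level with control replicate 1, so that the groups overlapped. The means were 244.5 ± 14.0 and 288 ± 76.6 CPM (SD, n = 2 each), a log2 fold change of 0.24 (SE 0.16, 95% interval -0.12 to 0.60, edgeR adjusted p = 0.572). Without vKO replicate 2 the log2 fold change was -0.06, and without vKO replicate 1 it was 0.49, at edgeR adjusted p values of 0.956 and 0.644. Malat1 (ENSMUSG00000092341, a lincRNA in M21, chr19:5795690-5802672, minus strand) had more counts than 96.4% of the genes tested.

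Neat1 was the RNA of the 10 whose libraries separated by group, by a small margin. It had 56.5 and 51.0 CPM in controls and 62.4 and 63.8 CPM in vKO-labelled libraries. Both vKO values lay above both control values, and the vKO libraries differed from each other by less than the control libraries did. The means were 53.7 ± 3.92 and 63.1 ± 0.968 CPM, a log2 fold change of 0.23 (SE 0.13, 95% interval -0.05 to 0.51, edgeR adjusted p = 0.455). With each library left out in turn it ran from 0.16 to 0.30. Its positive sign there follows from the separation of the libraries and adds nothing to it. Neat1 (ENSMUSG00000092274, lincRNA, chr19:5824708-5845478, minus strand) is made as a short form with a poly(A) tail and as the long form shown above. A gene count joins both forms, and their shares cannot be told apart.

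The RNAs of genes for proteins of these nuclear bodies showed no called change either, and the proteins themselves were not measured. All 23 listed genes for paraspeckle proteins were tested. Of them, 0 were called by edgeR or in the authors' deposited table. At an unadjusted edgeR p under 0.05 there were 2, against 14.1% of all genes tested. Their median log2 fold change was 0.05, with 14 higher and 9 lower. The smallest p values were those of Cpsf7, a cleavage factor subunit, with a log2 fold change of 0.41 (edgeR adjusted p = 0.202), and Matr3, a nuclear matrix protein, with -0.33 (edgeR adjusted p = 0.228). Of the 22 genes for nuclear speckle proteins, 22 were tested and 0 were called by either source. An unadjusted edgeR p under 0.05 was found for 3, against 14.1% of all genes tested. Of the 22, 13 were higher and 9 lower, with a median of 0.08. Among them the splicing factor Srsf9 had a log2 fold change of 0.39 (edgeR adjusted p = 0.237) and the splicing coactivator Srrm1 of 0.41 (edgeR adjusted p = 0.278). The genes beside Malat1 and Neat1 on chromosome 19 gave 0 calls among 9 tested of 10 listed, by either source, and 0 had an unadjusted edgeR p under 0.05. Their median was 0.10, and Tigd3 had a log2 fold change of -0.47 (edgeR adjusted p = 0.640).

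**Figure D2:**
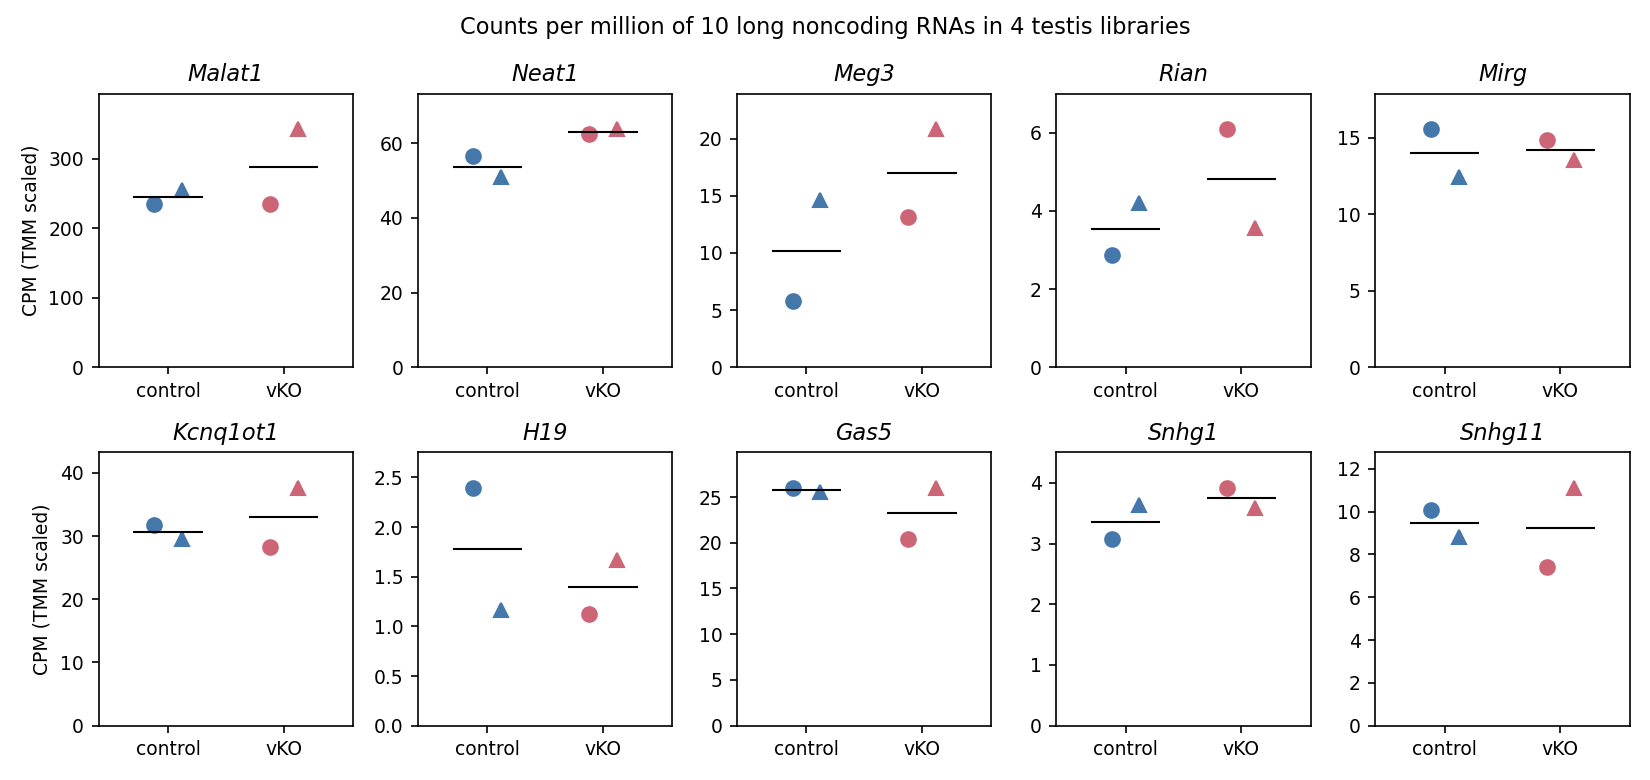
CPM after TMM scaling (y axis, from 0 in each panel) of the 10 RNAs in the control libraries (blue) and in vKO-labelled libraries (red); circles are replicate 1, triangles replicate 2 and lines the mean of 2 libraries. The groups separate for Neat1 alone, control replicate 1 is the lowest library for Meg3, Rian and Snhg1, and vKO replicate 2 is the highest for 6 RNAs.

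Meg3, the first of the maternal transcripts of the Dlk1-Dio3 region, varied widely between libraries of the same group. It had 135 and 438 counts in the control libraries and 353 and 562 in vKO-labelled libraries, or 5.78 and 14.6 CPM against 13.2 and 20.8 CPM. Control replicate 1 stood low, and control replicate 2 lay above vKO replicate 1. Control replicate 2 was 2.53-fold above control replicate 1, and only 1.1% of the 17827 genes with at least 1 CPM had a larger ratio in either direction between the control libraries. In vKO-labelled libraries the ratio was 1.58, and 5.76% of those genes had a larger ratio.

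The group means of Meg3 were 10.2 ± 6.25 and 17.0 ± 5.41 CPM, a log2 fold change of 0.72 (SE 0.48, 95% interval -0.50 to 1.95, edgeR adjusted p = 0.587). It was not called in that fit on the group label with all 4 libraries. Without control replicate 2 the log2 fold change was 1.56 and passed the threshold, in a fit that also called many more of all genes. Without control replicate 1 it was 0.21, not past the threshold. Without vKO replicate 1 it was 1.02 and without vKO replicate 2 it was 0.36, neither past the threshold. A fit without 1 library leaves a lone library in its group, which is then assumed to vary like the others. In bulk tissue, fewer cells that make an RNA and less of that RNA per cell cannot be told apart.

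Summed markers of cell types in the interstitium and tubule wall also differed between the control libraries. In control replicate 1, control replicate 2, vKO replicate 1 and vKO replicate 2, in that order, the 5 myoid markers summed to 48.2, 81.1, 78.5 and 55.4 CPM. The 6 macrophage markers summed to 40.2, 58.97, 60.6 and 47.7 CPM. Both sums were lowest in control replicate 1 and second lowest in vKO replicate 2, but not every macrophage marker had that order. Mrc1, the largest part of the macrophage sum, had 24.7, 28.5, 29.9 and 23.98 CPM and was lowest in vKO replicate 2. Adgre1 was lowest in vKO replicate 1 and highest in vKO replicate 2. Csf1r, C1qa, Cd68 and Cd163 were lowest in control replicate 1, though Cd163 was second lowest in control replicate 2. The 7 Leydig markers summed to 292, 354.5, 458 and 345 CPM, and the 6 endothelial markers to 34.4, 23.9, 42.7 and 36.2 CPM. Vwf alone, at 26.1, 14.2, 30.8 and 23.5 CPM, made up most of the endothelial sum, which thus mainly followed that gene. The 10 Sertoli markers summed to 934 and 1002 CPM in controls and to 1322 and 1169 CPM in vKO-labelled libraries. Clu alone, at 658 and 715 CPM against 934 and 801 CPM, made up most of the Sertoli sum. Wt1, a Sertoli transcription factor, was called higher (log2 fold change 0.71, edgeR adjusted p = 0.0418). The 4 tested of 5 erythrocyte markers summed to 26.6 and 32.3 CPM against 42.0 and 39.0 CPM. The part of these cell types in the Meg3 values was not tested.

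Germ cell markers were summed in the same way. Over 6 genes, spermatogonial markers stood at 92.9 and 92.2 CPM in controls and at 112.6 and 101.2 CPM in vKO-labelled libraries. The 6 spermatocyte markers summed to 3228 and 3086 CPM against 2912 and 2858 CPM, and the 5 round spermatid markers to 1042 and 988 CPM against 1055 and 1088 CPM. Ldhc alone, at 2391 and 2225 CPM against 2008 and 2036 CPM, made up most of the spermatocyte sum. Only 2 of the 6 spermatocyte markers had groups that did not overlap, against 45.3% of all genes tested. The 6 elongating spermatid markers summed to 7737 and 6190 CPM against 5991 and 6117 CPM, with control replicate 1 the highest. Of 6 listed epididymis markers, 4 had no matching row and only 1 was tested, Cst8, at 205 and 201 CPM against 164 and 167 CPM. That 1 gene cannot show whether epididymis was present, which was not tested. Wt1 was the only marker that edgeR called, and it called 0.393% of all genes tested. Of the 10 Sertoli markers, 8 had an unadjusted edgeR p under 0.05, against 14.1% of all genes tested. The authors' deposited table called 2 of the Sertoli markers, where it called 137 genes higher and 80 lower in all.

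Rian, which carries a snoRNA cluster, had 2.87 and 4.203 CPM in controls and 6.09 and 3.56 CPM in vKO-labelled libraries. Control replicate 1 was again the lowest library, but here vKO replicate 1 was the highest, so that Rian and Meg3 did not follow the same order. The means were 3.53 ± 0.945 and 4.82 ± 1.79 CPM, a log2 fold change of 0.44 (SE 0.30, 95% interval -0.22 to 1.09, edgeR adjusted p = 0.566). It was 0.77 without vKO replicate 2 and 0.0029 without vKO replicate 1, and neither passed the threshold. Without control replicate 2 it was 0.75 (edgeR adjusted p = 0.197) and without control replicate 1 it was 0.19 (edgeR adjusted p = 0.809).

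Mirg, the microRNA-rich gene at the far end of the same cluster, was the steadiest of the 3. It had 15.6 and 12.5 CPM in controls and 14.9 and 13.5 CPM in vKO-labelled libraries, and both vKO values lay between the control values. The means were 14.0 ± 2.19 and 14.2 ± 0.946 CPM, a log2 fold change of 0.02 (SE 0.17, 95% interval -0.36 to 0.40, edgeR adjusted p = 0.976), which was -0.03 with an offset for GC content. With each library left out it ran from -0.13 to 0.18. These genes lie on the plus strand of chromosome 12 in GRCm38, Meg3 (ENSMUSG00000021268) at chr12:109541001-109571726, Rian (ENSMUSG00000097451) at chr12:109603940-109661716 and Mirg (ENSMUSG00000097391) at chr12:109729764-109749460. They are thus 3 neighbours whose libraries ranked in 3 different orders.

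Of 5 other listed genes of the Dlk1-Dio3 region, 2 were tested and 0 were called by edgeR or in the authors' deposited table, with 0 at an unadjusted edgeR p under 0.05. Dlk1, a paternally read gene for a transmembrane Notch-related protein, was near the lower limit of the data with 13 and 12 counts in controls and 25 and 18 in vKO-labelled libraries (log2 fold change 0.75, SE 0.54, edgeR adjusted p = 0.589). Begain had 6.33 and 4.04 CPM against 6.46 and 5.93 CPM (log2 fold change 0.27, edgeR adjusted p = 0.695). The other 3 listed genes were not analysed here.

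Kcnq1ot1, the paternally read antisense RNA of the Kcnq1 region, had 31.7 and 29.5 CPM in controls and 28.3 and 37.7 CPM in vKO-labelled libraries. The control libraries lay inside the range of the vKO libraries. The means were 30.6 ± 1.57 and 33.0 ± 6.61 CPM, a log2 fold change of 0.11 (SE 0.16, 95% interval -0.23 to 0.45, edgeR adjusted p = 0.822), and it was -0.11 without vKO replicate 2. Kcnq1ot1 (ENSMUSG00000101609, chr7:143203458-143296549, minus strand) lies within the potassium channel gene Kcnq1, which is read on the plus strand. Kcnq1 had 45 and 73 counts in controls and 64 and 78 in vKO-labelled libraries, against 742 to 1016 counts of Kcnq1ot1. Whether the counting used strand is not given in the sources used here.

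H19 was the least counted RNA, with 56 and 35 counts in controls and 30 and 45 in vKO-labelled libraries, or 2.40 and 1.17 CPM against 1.12 and 1.67 CPM. Control replicate 1 was the highest library here, where it was the lowest for Meg3 and Rian. The ratio of control replicate 1 to control replicate 2 was 2.05, and 2.31% of genes with at least 1 CPM had a larger ratio in either direction. The means were 1.78 ± 0.869 and 1.39 ± 0.387 CPM, a log2 fold change of -0.34 (SE 0.42, 95% interval -1.25 to 0.58, edgeR adjusted p = 0.790), and it was 0.25 without control replicate 1 and -0.78 without control replicate 2. H19 (ENSMUSG00000000031) lies on the minus strand at chr7:142575529-142578143. Of the 19 other listed genes around H19 and Kcnq1, 13 were tested, and 0 were called by edgeR or in the authors' deposited table. An unadjusted edgeR p under 0.05 was found for 2 of them, against 14.1% of all genes tested. These were the tetraspanin gene Cd81 (log2 fold change 0.37, edgeR adjusted p = 0.301) and the histone chaperone gene Nap1l4 (-0.28, edgeR adjusted p = 0.320). The median of the 13 was 0.24 with 9 higher and 4 lower.

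Imprinted genes of other regions were counted to place these values. Of 24 listed, 20 were tested and 0 were called by edgeR or in the authors' deposited table, with 10 higher, 10 lower and a median log2 fold change of 0.05. An unadjusted edgeR p under 0.05 was found for 2, against 14.1% of all genes tested. Both had groups that did not overlap, as did 45.3% of all genes tested. Gnas, which encodes the stimulatory G protein subunit, had 100.2 and 92.8 CPM against 132 and 126 CPM (log2 fold change 0.42, edgeR adjusted p = 0.161). Peg10, a paternally read gene of retrotransposon origin, had 29.8 and 26.8 CPM against 39.6 and 37.8 CPM (log2 fold change 0.45, edgeR adjusted p = 0.175).

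The annotated starts of Gas5 and Snhg1 are shown because exons of such hosts are known to begin with a pyrimidine tract like that of ribosomal protein genes. The windows are from the RefSeq promoter table of GRCm38.p6, plus strand, at chr1:161035146-161035205 for the downstream of 2 Gas5 starts and chr19:8723467-8723526 for Snhg1, with 20 bases before the start. Capitals mark the longest run of C or T that begins with C within 5 bases of the start.
Gas5: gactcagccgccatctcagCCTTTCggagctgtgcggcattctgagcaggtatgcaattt
Snhg1: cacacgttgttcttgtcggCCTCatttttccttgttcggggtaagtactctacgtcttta
The run is 6 bases in Gas5 and 4 in Snhg1, and 10.2% and 30.6% of the 32851 promoters in the table hold a run at least as long. The other Gas5 start and the start of Snhg11, not printed, have runs of 3 bases only. The table holds a promoter for 8 of the 10 RNAs, the others being H19 and Neat1.

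Gas5 had 26.0 and 25.55 CPM in controls and 20.4 and 26.0 CPM in vKO-labelled libraries. The control libraries agreed closely, vKO replicate 1 was lower, and vKO replicate 2 was level with control. The means were 25.8 ± 0.296 and 23.2 ± 3.95 CPM, a log2 fold change of -0.15 (SE 0.16, 95% interval -0.49 to 0.19, edgeR adjusted p = 0.733), and it was -0.34 without vKO replicate 2 and 0.01 without vKO replicate 1. Gas5 (ENSMUSG00000053332, processed transcript, chr1:161034422-161038539, plus strand) meets the opposite-strand gene Zbtb37 at its 5′ end. Zbtb37 had 443 and 683 counts in controls and 508 and 523 in vKO-labelled libraries. Reads in the shared stretch could count toward either gene if strand was not used.

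Snhg1 had 3.08 and 3.64 CPM in controls and 3.92 and 3.60 CPM in vKO-labelled libraries. Control replicate 1 was the lowest, and the other 3 libraries lay close together. The means were 3.36 ± 0.393 and 3.76 ± 0.231 CPM, a log2 fold change of 0.16 (SE 0.26, 95% interval -0.39 to 0.71, edgeR adjusted p = 0.840). Without control replicate 1 it was 0.04, and without control replicate 2 it was 0.29. Snhg1 (ENSMUSG00000108414) lies on the plus strand at chr19:8723475-8726443 and spans 8 annotated snoRNAs, against 10 in Gas5.

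Snhg11 had 10.1 and 8.81 CPM in controls and 7.40 and 11.1 CPM in vKO-labelled libraries, with the control libraries inside the range of the vKO libraries. The means were 9.45 ± 0.913 and 9.26 ± 2.63 CPM. The log2 fold change was -0.03 (SE 0.22, 95% interval -0.50 to 0.44, edgeR adjusted p = 0.974), and its sign turned with scaling by library totals alone (0.04) and with an offset for GC content (0.02). It was 0.24 without vKO replicate 1 and -0.35 without vKO replicate 2. Snhg11 (ENSMUSG00000044349, chr2:158375638-158386145, plus strand) spans 2 annotated snoRNAs and is typed as protein-coding in M21 but as a long noncoding RNA in RefSeq. Among 18 other noncoding snoRNA hosts, 15 were tested and 0 were called by edgeR or in the authors' deposited table. They had a median of 0.08, with 10 higher and 5 lower. At an unadjusted edgeR p under 0.05 there was 1, against 14.1% of all genes tested. That was Snhg18, with 1.20 and 2.03 CPM against 3.10 and 2.67 CPM (log2 fold change 0.82, edgeR adjusted p = 0.298), followed by Snhg6 (0.48, edgeR adjusted p = 0.390).

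**Figure D3:**
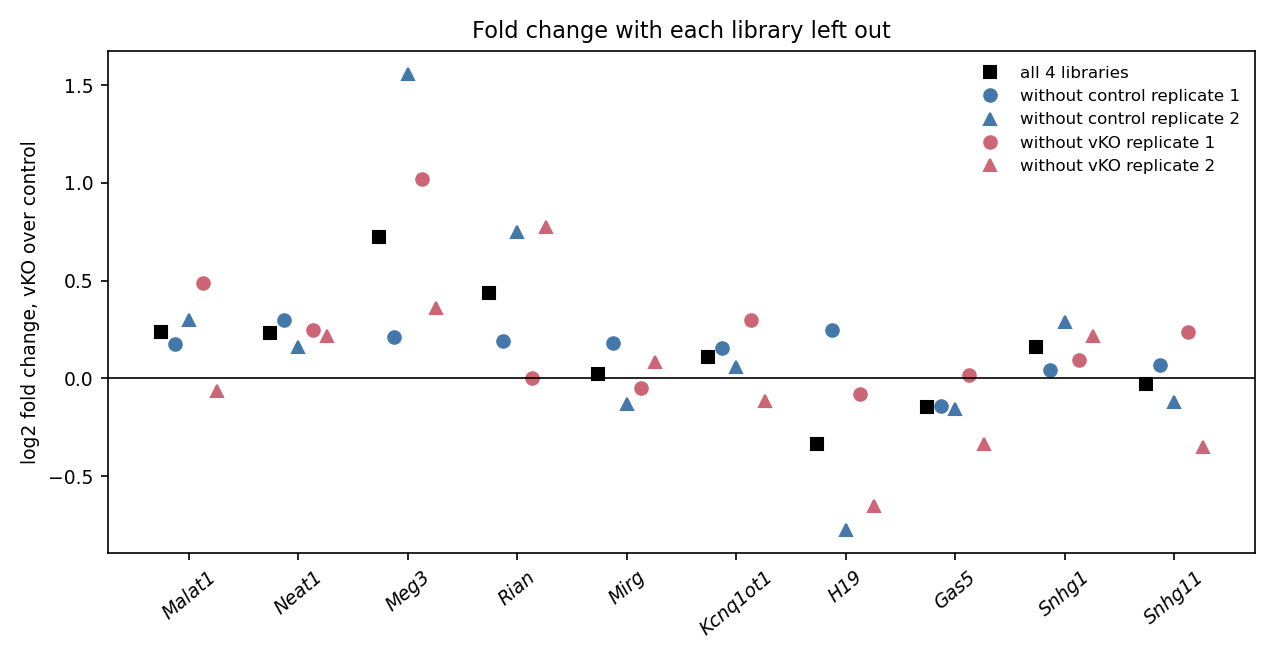
Log2 fold change of vKO-labelled libraries over control (y axis) for the 10 RNAs with all 4 libraries (black squares) and with each library left out (blue for control, red for vKO, circles for replicate 1, triangles for replicate 2). Neat1 stays between 0.16 and 0.30, Meg3 runs from 0.21 to 1.56, and H19 from -0.78 to 0.25.

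Levels were compared between the RNAs per length, as CPM per kilobase of the merged exons in M21. Malat1 stood first at 38.1 ± 7.38 CPM per kilobase (SD over 4 libraries), above 90.8% of the genes tested. Gas5 followed at 6.51 ± 0.722, Neat1 at 2.81 ± 0.284 and Mirg at 1.94 ± 0.189 CPM per kilobase. Each of these 4 lay above the next with no overlap of libraries. Snhg1 (1.20 ± 0.118), Snhg11 (1.10 ± 0.189), Meg3 (0.752 ± 0.342) and H19 (0.646 ± 0.241) came next, and each overlapped its neighbour in that order.

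Kcnq1ot1 (0.342 ± 0.0446) and Rian (0.229 ± 0.0760) came last in CPM per kilobase and overlapped each other, although Kcnq1ot1 had more counts than 70.8% of the genes tested. Its annotated length is 93092 nt, against 2460 nt of merged exons for H19. The merged exons of Snhg1, 2969 nt, cover its whole annotated gene and so take in introns of its spliced forms. The longest Snhg1 transcript, at 2728 nt, is nearly as long, so neither length gives the level of the spliced RNA. Gas5 has 3760 nt of merged exons and a longest transcript of 2556 nt. The order depends on the length used: per kilobase of the longest transcript Mirg (3.69) passed Neat1 (2.81), Snhg11 (1.595) passed Snhg1 (1.30), and Rian (0.517) passed Kcnq1ot1 (0.342).

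**Figure D4:**
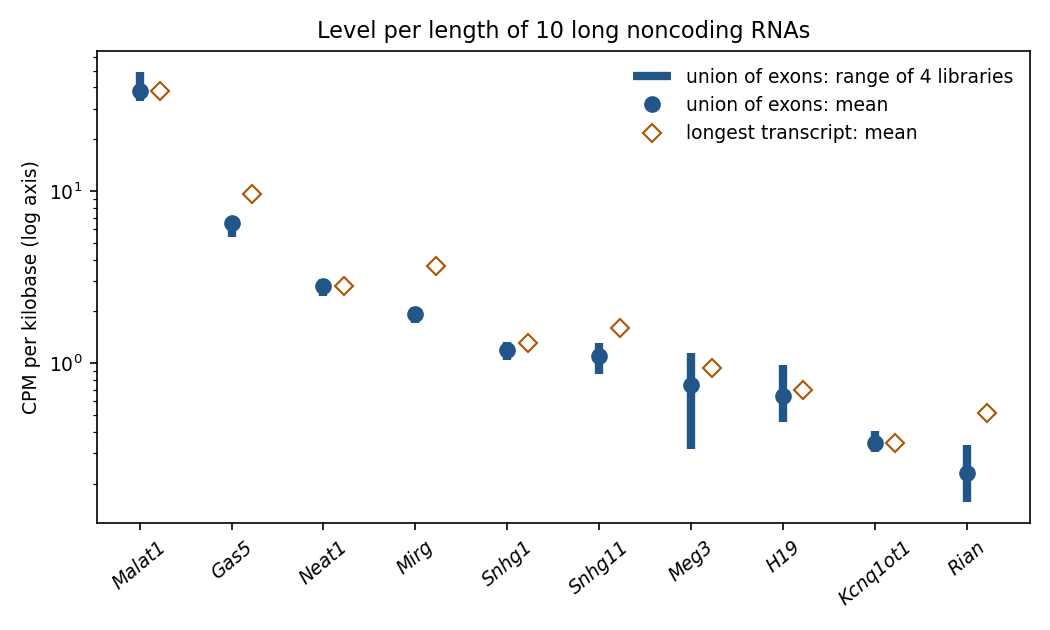
CPM per kilobase (log axis) of the 10 RNAs in falling order; filled points are means over 4 libraries and bars their range with the length of merged exons, and open diamonds are means with the length of the longest transcript. Malat1 stands at 38.1 and Rian at 0.229 with merged exons.

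The pentamer GGACT, the most frequent core around methylated adenosines, was counted on the sense strand of the longest transcripts because YTHDF2 binds such sites once they are methylated. The median over 21116 tested genes was 1.02 per kilobase, with quartiles at 0.554 and 1.52, and 85.9% of them held at least 1. H19 had the highest density of the 10 at 2.62 per kilobase (6 in 2286 nt), above 95.04% of genes. Snhg11 had 1.88 and Mirg 1.57 per kilobase, also above the upper quartile. Malat1 (1.29 per kilobase, 9 matches), Gas5 (1.17), Neat1 (1.11, 23 matches), Meg3 (1.10) and Kcnq1ot1 (0.859, 80 matches) lay between the quartiles. Snhg1 (0.367) and Rian (0.247) were below the lower quartile. The Snhg1 transcript used, at 2728 nt, is nearly as long as the whole annotated gene and so takes in introns of its spliced forms. The GC content of these transcripts also differed, with H19 the highest of the 10 at 55.8% and Rian the lowest at 35.8%. The median over all genes was 48.9%, and Snhg11 lay below it at 44.9%. Whether density follows GC content was not tested. The letters do not show whether a site is methylated, and a link between density and fold change was not tested.

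Long noncoding RNAs as an annotation class gave the wider frame. M21 types 3538 of the tested genes as long noncoding, 9 of the 10 RNAs among them, and edgeR called 7 of these genes, or 0.198%, 2 higher and 5 lower. Their median log2 fold change was -0.11, and 10.7% had an unadjusted p under 0.05. The median level of the class was 2.17 CPM, and only 10 of its genes had more CPM than Malat1 and 79 more than Neat1. Per kilobase, 96 had a higher level than Malat1 and 1441 a higher level than Neat1. Among 13 other well known long noncoding RNAs, 12 were tested and 0 were called by edgeR or in the authors' deposited table, with 4 higher, 8 lower and a median of -0.08. An unadjusted edgeR p under 0.05 was found for Mir22hg, the host of miR-22 (log2 fold change 0.74, edgeR adjusted p = 0.222), and for the X-linked nuclear RNA Firre (0.40, edgeR adjusted p = 0.323).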

How the data were processed

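The authors deposited 1 table of 25265 genes with raw read counts for 4 testis libraries, and per the file headers also a mean normalized count (a signal over all libraries), a log2 fold change and its error, a Wald score, and a p-value with its adjusted value, under DESeq2 column names. The submitters' processing notes name HISAT2 2.1.0 and HTSeq 0.6.1p1. The genome build, annotation and use of strand or of reads with several matches are not given in the sources used here. No gene has fewer than 10 counts in all.

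Counts were tested with edgeR 4.0.16 (R 4.3.3): TMM scaling, filtering by filterByExpr, and a quasi-likelihood fit (robust) on the group label only, two-sided, with Benjamini-Hochberg adjustment over 21132 genes and a call at an adjusted p under 0.05. The script was tested on simulated data. Standard errors are the absolute log2 fold change over the square root of F, and 95% intervals use the fit's degrees of freedom. CPM are TMM scaled. Replicates of a group differed by more than sampling noise (chi-square per degree of freedom 19.4 in control, 7.84 in vKO), so none were merged. Reads carry no molecular identifiers. Positions and lengths are from GENCODE M21 (GRCm38), joined by identifier, and the authors' build may differ. Of 73 annotated genes that overlap the 10 RNAs, 33 of them snoRNAs and 22 microRNAs, 2 had counts that could be read; how reads on the others were counted is not known here.

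The 10 RNAs and the gene lists were chosen with earlier results of these data known. Named are the 10 RNAs, Ythdf2, called genes of the lists and otherwise the 2 genes of a list with the smallest p. The value of 1 gene that this rule names is not reported here. No gene was named for a similar pattern, since 4 libraries are too few for a correlation. Listed genes without a matching row are not analysed here. Alternatives covered scaling, filters, robust estimation, a DESeq2 1.42.0 Wald test, a stricter threshold, the replicate number as a block, a GC offset, the length used and leaving out each library.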

Additional observations from a re-analysis of the deposited data

How the results depend on the processing

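Of 160 log2 fold changes of the 10 RNAs (16 alternatives each), 144 kept their direction and side of the threshold, 13 changed sign and 3 passed the threshold. Apart from fits that left out a library, sign changes were limited to Mirg with the GC offset (-0.0258) and with the GC offset and replicate block (-0.0222), and to Snhg11 with library totals alone (0.0414), the GC offset (0.0186) and the GC offset with replicate block (0.0019). With each library left out in turn, 6 RNAs changed sign in at least 1 fit. Malat1 ran from -0.0644 (without vKO replicate 2) to 0.486, and Kcnq1ot1 from -0.115 (without vKO replicate 2) to 0.299. H19 ran from -0.777 to 0.249 (without control replicate 1), Gas5 from -0.336 to 0.0148 (without vKO replicate 1) and Mirg from -0.132 (without control replicate 2) to 0.179. Snhg11 ran from -0.353 to 0.236 (without vKO replicate 1). All of these values had edgeR adjusted p values over the threshold. Neat1, Meg3, Rian and Snhg1 kept their sign in all 16 alternatives. With library totals alone the median over all genes was 0.0674 (log2).

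The 3 that passed were all Meg3, and the count of RNAs called was then 1: with the replicate block (log2 fold change 0.82, edgeR adjusted p = 0.00642), with the GC offset and replicate block (0.83, edgeR adjusted p = 0.0155), and without control replicate 2 (1.56). Many more of all genes passed in these 3 fits too. The replicate block gave 627 higher and 390 lower of 21132, and the GC offset with replicate block 257 and 300, against 59 and 24 in the main fit. Over the alternatives with all 4 libraries the adjusted p of Meg3 ran from 0.00642 (edgeR, replicate block) to 0.774 (DESeq2 Wald test). With a library left out, the count of RNAs called ran from 0 to 1. The labels do not say what the replicate numbers mark, and with 2 pairs the libraries of one number deviated from their group means with a correlation of 0.0932 (17827 genes), so no pairing was assumed.

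Over all genes, 59 were higher and 24 lower. Library totals alone gave 181 and 37, the DESeq2 Wald test 137 and 80, an adjusted p under 0.01 gave 8 and 2, the replicate block 627 and 390, and the GC offset with replicate block 257 and 300. The GC offset gave 76 higher and 66 lower, and the fit without robust estimation 50 and 15. The balance of higher and lower calls thus differed between settings. Other scalings stayed near the main fit, with 54 and 17 for DESeq2 size factors and 58 and 23 without the 20 most abundant genes. With each library left out, higher genes ran from 30 to 1048 and lower genes from 5 to 523. The cause was not tested. H19 had the fewest counts of the 10 RNAs, 30 to 56 per library, and Meg3 the largest standard error, 0.48.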
